A study of Mus musculus with 121 samples.

Results

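The genes described here carry the core of endocannabinoid signaling: the receptor gene Cnr1 and its binding partner Cnrip1, the synthesis genes Dagla, Daglb and Napepld, and the breakdown genes Mgll, Abhd6 and Faah. They were taken as the rows of the deposited read count table whose gene symbol was 1 of these names, which gave 8 of 24412 genes. Endocannabinoids are lipid messengers that a neuron makes on demand from its membrane and that travel backwards across the synapse to the CB1 receptor on the axon terminal, where they lower transmitter release. The 2 main messengers are 2-arachidonoylglycerol (2-AG), made by diacylglycerol lipases and broken down largely by monoacylglycerol lipase, and anandamide, released by NAPE-PLD among other routes and broken down by fatty acid amide hydrolase. Striatal projection neurons make the CB1 receptor and send it along their axons to the substantia nigra.

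The study measured RNA in prefrontal cortex (PFC), striatum (STR) and substantia nigra (SN) of male mice that carry cKU, a conditional allele made to raise Gdnf from its own locus once Cre recombinase has acted. Genotypes were wt/wt (WT), wt/cKU (HET) and cKU/cKU (HOM), with wild-type littermates as controls, and all mice were of a 129Ola/ICR/C57bl6 mixed background. The strain labelled GDNF cKU x Nestin-Cre (56 libraries of 21 mice) was 2 months old and untreated, and its Cre acts in neural precursors from mid-gestation. The strain labelled GDNF cKU +AAV-Cre (65 libraries of 22 mice) received a viral Cre vector in the striatum of both sides at 3 to 5 months and was 5 to 7 months old. WT mice of both models carried Nestin-Cre or received the vector as well, so Cre itself is shared by the compared genotypes. Nestin-Cre groups held 8 WT, 6 HET and 4 HOM libraries in PFC and 6 WT, 7 HET and 6 HOM libraries in each of STR and SN. AAV-Cre groups held 7 WT and 7 HET libraries in each region, with 8 HOM libraries in PFC and SN and 7 in STR. Each library came from poly(A) RNA of 1 mouse and held between 9869584 counts (AAV-Cre PFC HET) and 26750905 counts (Nestin-Cre PFC HET).

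Levels below are in cpm, counts scaled to the size of each library and by TMM over all 121 libraries, and levels of different genes are compared only after division by exon length in kilobases. All 8 genes passed the filter on low counts in every comparison, with the lowest count in any library at 99 (Napepld) and the highest at 14164 (Cnr1). By the mm10 annotation they lie apart on 6 chromosomes, and no exon of any of them overlaps an exon of another gene. Cnr1 (Entrez 12801) lies on chromosome 4 from 33924632 to 33948831, Cnrip1 (380686) on 11 from 17051934 to 17079372, Dagla (269060) on 19 from 10245265 to 10304877 and Daglb (231871) on 5 from 143464493 to 143504442. Mgll (23945) lies on chromosome 6 from 88724412 to 88828360, Abhd6 (66082) on 14 from 8002888 to 8056770, Napepld (242864) on 5 from 21662903 to 21701345 and Faah (14073) on 4 from 115996656 to 116017902.

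The dissected regions carried the markers of their labels. Cortical excitatory neuron markers (9 genes, led by Slc17a7) summed to a mean of 2691 cpm in WT PFC of Nestin-Cre and 2272 cpm in WT PFC of AAV-Cre mice, against 368 and 198 cpm in STR. Striatal projection neuron markers (12 genes, led by Ppp1r1b) summed to 12813 and 9887 cpm in WT STR, against 928 and 1450 cpm in PFC and 347 and 502 cpm in SN. Midbrain dopamine neuron markers (9 genes, led by Slc6a3) summed to 3777 and 3569 cpm in WT SN and to between 66.1 and 113 cpm in the other regions, where Foxa1 was at 0 in every PFC library. 

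Some libraries stood apart or carried labels at odds with each other (mice are named by their animal number after an M). For mouse M4575 the label of the PFC library is WT, while those of the STR and SN libraries are HOM, and the labels were used as given. In 13 libraries the markers of another tissue were high. Choroid plexus markers summed to over 1000 cpm in 9 of the 13, among them 19092 cpm in Nestin-Cre STR HET mouse M4566 and 20378 cpm in AAV-Cre SN HET mouse M3676, against medians of 88.8 and 35.9 cpm in the same groups. The other such libraries were AAV-Cre PFC HET mouse M3676 and, in AAV-Cre STR, WT mice M3585 and M3588, HET mice M3610 and M3750 and HOM mice M3607 and M3690. Striatal markers were over 1000 cpm in SN of Nestin-Cre HET mouse M4566 and AAV-Cre WT mouse M3587. Cortical markers were over 500 cpm in STR of Nestin-Cre WT mouse M4326 and HOM mouse M4569. Striatal markers were given no limit in PFC. Their sums there reached 1341 cpm in Nestin-Cre WT and 2143 cpm in AAV-Cre WT libraries, and no PFC library was left out for them. Results are given with the 13 libraries. Values without them are given where a call or a sign changed, and for some other values.

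Across regions of WT mice, the question was where each step of the pathway is most strongly expressed without the conditional allele. Cnr1, which encodes CB1, ran from 206 to 277 cpm (median 265) in PFC, from 408 to 773 cpm (median 637) in STR and from 63.4 to 99.2 cpm (median 76.3) in SN of Nestin-Cre mice. Cnr1 of AAV-Cre mice ran from 163 to 241 cpm (median 206) in PFC, from 210.4 to 371 cpm (median 311) in STR and from 57.0 to 97.2 cpm (median 76.6) in SN. SN was lowest without overlap in both models, and STR was highest without overlap in Nestin-Cre mice, while in AAV-Cre mice 6 of 7 STR libraries lay above the highest PFC library. In STR against PFC the Cnr1 difference was 1.28 on the log2 scale (SE 0.12, adjusted p = 5.93e-09) in Nestin-Cre and 0.58 (SE 0.11, adjusted p = 0.000137) in AAV-Cre mice, or 0.50 without the libraries with markers of other tissue. In SN against STR it was -2.98 (SE 0.14) and -2.06 (SE 0.12), with adjusted p of 3.04e-14 and 5.28e-13. In bulk tissue, fewer cells of a type and less RNA per cell cannot be told apart, here and in every difference that follows.

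Cnrip1 encodes a small protein that binds the intracellular tail of CB1, and its order over regions was not that of Cnr1. Cnrip1 ran from 77.9 to 102 cpm (median 87.5) in PFC, from 30.3 to 43.4 cpm (median 37.5) in STR and from 42.1 to 51.7 cpm (median 46.4) in SN of Nestin-Cre WT mice. The AAV-Cre WT libraries held 54.6 to 73.9 cpm (median 70.8) in PFC, 24.3 to 28.0 cpm (median 26.1) in STR and 38.1 to 45.4 cpm (median 40.7) in SN. PFC was highest without overlap in both models, STR was lowest, and 5 of 6 Nestin-Cre and 7 of 7 AAV-Cre SN libraries lay above the highest STR library. In STR against PFC the difference was -1.27 (SE 0.08, adjusted p = 5.96e-12) and -1.40 (SE 0.06, adjusted p = 6.66e-15), opposite in sign to that of Cnr1. In SN against STR it was 0.34 (SE 0.08, adjusted p = 0.000797) and 0.66 (SE 0.06, adjusted p = 8.41e-10).

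Dagla encodes the diacylglycerol lipase that makes most 2-AG in adult neurons. Dagla ran from 121 to 184 cpm (median 149.7) in PFC, from 83.0 to 143 cpm (median 108) in STR and from 28.5 to 47.3 cpm (median 34.4) in SN of Nestin-Cre WT mice. In the AAV-Cre model these ranges were 125 to 168 cpm (median 154), 96.8 to 129 cpm (median 112) and 54.0 to 70.1 cpm (median 64.1). STR and PFC overlapped in both models, with 5 of 6 and 5 of 7 STR libraries below the lowest PFC library, and SN lay below both without overlap. The difference of SN against PFC was -2.09 (SE 0.13, adjusted p = 5.42e-12) in Nestin-Cre and -1.26 (SE 0.08, adjusted p = 1.70e-12) in AAV-Cre mice, and that of STR against PFC was -0.45 (SE 0.12, adjusted p = 0.00308) and -0.39 (SE 0.08, adjusted p = 0.000126).

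Daglb encodes the other diacylglycerol lipase. Daglb ran from 51.0 to 67.6 cpm (median 57.4) in PFC, from 33.0 to 37.6 cpm (median 36.4) in STR and from 31.3 to 39.2 cpm (median 35.1) in SN of Nestin-Cre WT mice. Its AAV-Cre ranges were 56.7 to 63.9 cpm (median 60.7), 33.8 to 37.0 cpm (median 34.6) and 33.1 to 38.0 cpm (median 36.9). PFC lay above both other regions without overlap, and STR and SN overlapped. STR against PFC gave -0.70 (SE 0.07, adjusted p = 1.15e-08) and -0.77 (SE 0.04, adjusted p = 1.92e-13). For SN against STR the values were -0.05 (95% interval -0.19 to 0.10) and 0.04 (-0.04 to 0.13), with adjusted p of 0.58 and 0.347.

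Mgll encodes monoacylglycerol lipase, the main enzyme that ends 2-AG signaling, and it had the steepest fall from PFC to SN of the 8 genes. Mgll ran from 313 to 392 cpm (median 344) in PFC, from 143 to 197 cpm (median 166) in STR and from 53.3 to 69.7 cpm (median 56.4) in SN of Nestin-Cre WT mice. Among AAV-Cre WT libraries it ran from 361 to 419 cpm (median 389), from 152 to 201 cpm (median 179) and from 61.0 to 71.8 cpm (median 66.1). No regions overlapped in either model. The difference of SN against PFC was -2.58 (SE 0.09, adjusted p = 5.53e-16) and -2.55 (SE 0.06, adjusted p = 8.24e-20), and that of STR against PFC was -1.06 (SE 0.08) and -1.13 (SE 0.05), with adjusted p of 2.47e-10 and 3.60e-14.

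Abhd6 encodes a membrane hydrolase that breaks down 2-AG close to where neurons make it. Abhd6 ran from 56.9 to 72.0 cpm (median 66.7) in PFC, from 42.3 to 50.8 cpm (median 48.4) in STR and from 37.6 to 50.7 cpm (median 45.7) in SN of Nestin-Cre WT mice. The same regions of AAV-Cre WT mice gave 55.7 to 69.5 cpm (median 57.8), 32.2 to 40.6 cpm (median 36.9) and 31.2 to 41.9 cpm (median 33.4). PFC was highest without overlap, and STR and SN overlapped in both models. STR against PFC differed by -0.48 (SE 0.06, adjusted p = 1.38e-06) and -0.72 (SE 0.07, adjusted p = 4.71e-09), and SN against STR by -0.09 (95% interval -0.23 to 0.05) and -0.05 (-0.19 to 0.09), with adjusted p of 0.242 and 0.543.

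For anandamide, Napepld encodes the phospholipase that releases it from its membrane precursor. Napepld ran from 17.2 to 19.3 cpm (median 18.1) in PFC, from 5.93 to 7.74 cpm (median 7.11) in STR and from 16.7 to 21.9 cpm (median 20.2) in SN of Nestin-Cre WT mice. In AAV-Cre WT mice the ranges were 12.0 to 18.2 cpm (median 16.4), 7.01 to 11.2 cpm (median 8.69) and 17.9 to 22.5 cpm (median 18.4). STR was lowest without overlap in both models, and PFC and SN overlapped. SN against STR differed by 1.48 (SE 0.08, adjusted p = 8.29e-13) and 1.12 (SE 0.10, adjusted p = 9.45e-10). Against PFC, the SN difference of Napepld was 0.27 (SE 0.10, adjusted p = 0.0186) in AAV-Cre and 0.10 (SE 0.07, adjusted p = 0.232) in Nestin-Cre mice. The Nestin-Cre value was 0.15 with an adjusted p of 0.0727 with the size factors of DESeq2 in edgeR, 0.15 with 0.0599 in DESeq2 and 0.16 with 0.0617 without the libraries with markers of other tissue, and over its 10 settings the adjusted p ran from 0.0599 to 0.545.

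Faah encodes fatty acid amide hydrolase, the enzyme that clears anandamide. Faah ran from 114 to 136 cpm (median 117) in PFC, from 19.8 to 30.2 cpm (median 24.8) in STR and from 37.2 to 48.4 cpm (median 43.9) in SN of Nestin-Cre WT mice. AAV-Cre WT libraries gave 102 to 128 cpm (median 111), 19.1 to 28.9 cpm (median 24.4) and 40.4 to 51.7 cpm (median 43.5). The order PFC, SN, STR held without overlap in both models. STR against PFC differed by -2.30 (SE 0.09, adjusted p = 6.91e-15) and -2.25 (SE 0.08, adjusted p = 9.66e-16), and SN against STR by 0.79 (SE 0.09, adjusted p = 8.62e-08) and 0.93 (SE 0.08, adjusted p = 7.70e-10).

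**Figure D1:**
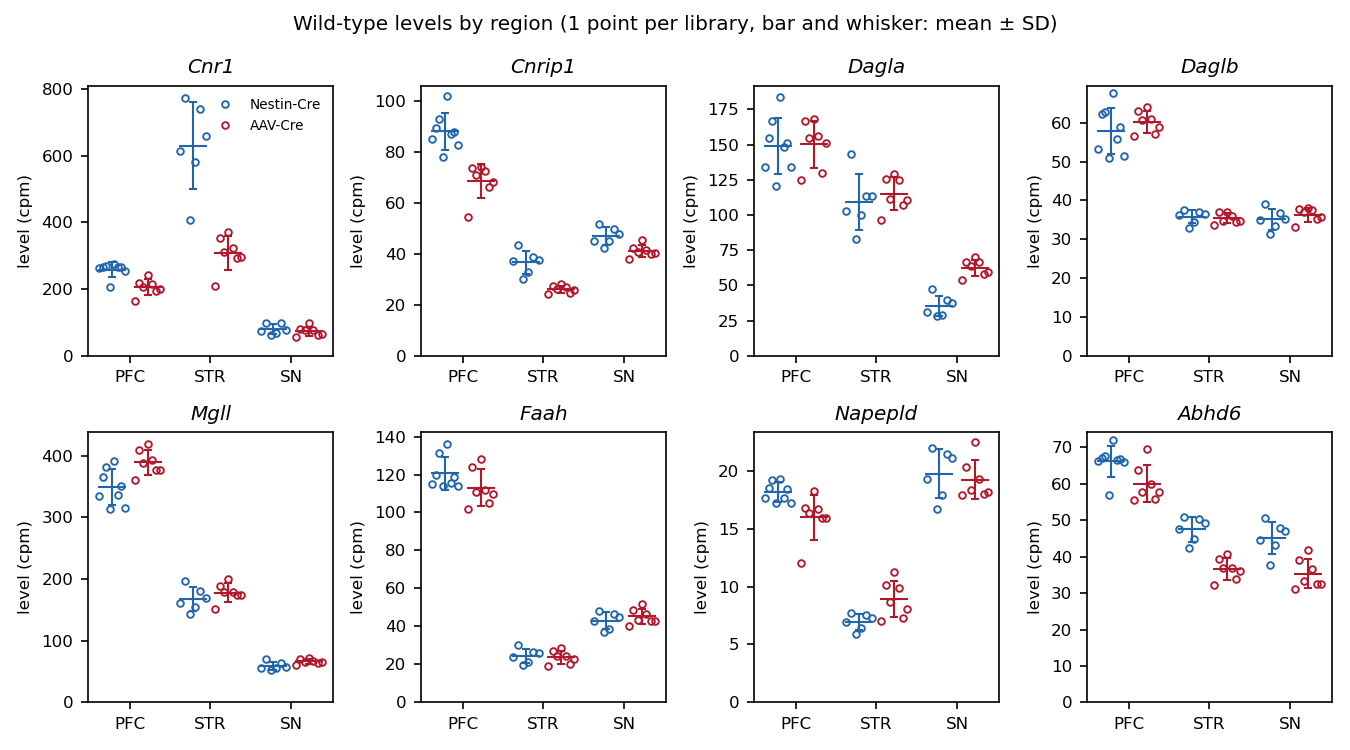
Level in cpm (vertical axis) of each of the 8 genes in WT mice, by region (horizontal axis) and model (blue Nestin-Cre, red AAV-Cre), with 1 point per library and the mean and SD as bar and whisker. Cnr1 is highest in STR, where Nestin-Cre libraries reach from 408 to 773 cpm, while the other genes are highest in PFC or, for Napepld, in PFC and SN.

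Counted together against all genes, edgeR called 8 of 8 genes between STR and PFC of Nestin-Cre WT mice (1 higher, 7 lower), where 68.1% of 14926 genes were called (34.2% higher and 34% lower). In AAV-Cre WT mice the same comparison called 8 of 8 genes (1 higher, 7 lower), with 65.6% of 15043 genes called (33.8% higher and 31.8% lower). SN against STR called 6 of 8 genes in Nestin-Cre mice (3 higher, 3 lower), against 76.2% of all genes (37.8% higher and 38.3% lower), and 6 of 8 in AAV-Cre mice (3 higher, 3 lower), against 75.6% (39.7% higher and 35.9% lower). SN against PFC called 7 of 8 genes in Nestin-Cre mice (0 higher, 7 lower), against 78.8% (37.6% higher and 41.2% lower), and 8 of 8 in AAV-Cre mice (1 higher, 7 lower), against 74.1% (37.7% higher and 36.4% lower). Most genes of the table differ between regions, so a call says little by itself. The median log2 difference of the 8 genes was -0.88 and -0.81 in STR against PFC, -1.22 and -1.01 in SN against PFC and -0.07 and 0.00 in SN against STR, with all-gene medians between -0.03 and 0.03, and this was not tested. The 3 region comparisons of a model share their libraries, so they are not independent. All 43 called region values of the 8 genes were also called without the libraries with markers of other tissue and with mouse as a replicate block, and the 21 Nestin-Cre ones also without mouse M4575.

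Per kilobase of exon, the pathway had a different leading gene in each region. In PFC of WT mice Mgll led with 75.3 ± 6.28 cpm per kilobase (SD, n = 8) in Nestin-Cre mice and 84.1 ± 4.35 (n = 7) in the AAV-Cre model, followed by Cnrip1 (57.2 ± 4.69 and 44.5 ± 4.40) and Cnr1 (44.5 ± 3.80 and 35.4 ± 4.13). Faah, Abhd6 and Dagla followed between 25.2 and 31.6 cpm per kilobase, then Daglb (17.9 ± 1.86 and 18.6 ± 0.865) and Napepld (4.94 ± 0.229 and 4.35 ± 0.524). In STR the receptor gene led, with Cnr1 at 108.3 ± 22.4 (n = 6) and 53.1 ± 8.95 (n = 7) cpm per kilobase and Mgll next at 36.2 ± 4.19 and 38.5 ± 3.24. Cnrip1, Abhd6 and Dagla lay between 15.3 and 23.8 cpm per kilobase there, Daglb at 11.1 ± 0.535 and 10.9 ± 0.401, Faah at 6.44 ± 0.980 and 6.24 ± 0.911, and Napepld at 1.90 ± 0.190 and 2.42 ± 0.424. In SN Cnrip1 led with 30.5 ± 2.28 (n = 6) and 26.7 ± 1.48 (n = 7) cpm per kilobase and Abhd6 was next with 18.9 ± 1.89 and 14.8 ± 1.67. Cnr1, Mgll, Faah and Daglb lay close together in SN between 10.8 and 14.4 cpm per kilobase, and Dagla was at 6.30 ± 1.31 in Nestin-Cre mice and 11.1 ± 1.01 in the AAV-Cre model. Anandamide genes were thus low in STR on this scale, and Napepld was the lowest of the 8 genes in every region.

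Between the models, WT mice differ in age, injection and the source of Cre at once, so model, age, injection and transgene cannot be told apart. Cnr1 was lower in AAV-Cre than in Nestin-Cre WT STR by a log2 difference of -0.99 (SE 0.14, adjusted p = 6.32e-05), with 7 of 7 AAV-Cre libraries below the lowest Nestin-Cre library. The Cnr1 difference was -0.29 (SE 0.07, adjusted p = 0.00368) in PFC, with 3 of 7 libraries below, and -0.16 (SE 0.13, adjusted p = 0.307) in SN, where the groups overlapped. Dagla differed in SN, where it was 0.79 higher (SE 0.10, adjusted p = 2.50e-05) with 7 of 7 AAV-Cre libraries above the highest Nestin-Cre library, and it was not called in PFC (0.05, adjusted p = 0.657) or STR (0.11, adjusted p = 0.403). Without the libraries with markers of other tissue these were -1.07 for Cnr1 in STR and 0.78 for Dagla in SN.

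Cnrip1 was lower in AAV-Cre mice in every region, by -0.32 (SE 0.07, adjusted p = 0.00112) in PFC, -0.45 (SE 0.08, adjusted p = 0.000210) in STR and -0.23 (SE 0.05, adjusted p = 0.00254) in SN, with no overlap in PFC and STR and 6 of 7 libraries below in SN. Abhd6 was lower in STR (-0.34, SE 0.07, adjusted p = 0.000582), without overlap, and in SN (-0.40, SE 0.09, adjusted p = 0.00125), with 5 of 7 libraries below. Napepld was higher in STR (0.39, SE 0.12, adjusted p = 0.0140), with 5 of 7 libraries above, while in PFC 6 of 7 libraries lay below the lowest Nestin-Cre library without a call (-0.15, SE 0.07, adjusted p = 0.121). Mgll was higher in PFC (0.20, SE 0.05, adjusted p = 0.00678), with 3 of 7 libraries above the highest Nestin-Cre library. In SN the Mgll difference was 0.13 (SE 0.06, adjusted p = 0.0969), which was no longer called by the likelihood ratio test (adjusted p = 0.33) or without the libraries with markers of other tissue (adjusted p = 0.121), and the adjusted p ran from 0.0794 to 0.33 over 7 settings. Daglb and Faah were called in no region, with differences between -0.05 and 0.10.

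Against the background, edgeR called 3 of 8 genes in PFC (1 higher, 2 lower), where 46.9% of 14461 genes were called (24.3% higher and 22.6% lower). It called 4 of 8 in STR (1 higher, 3 lower), where 61.9% of 14449 were called (32% higher and 29.9% lower), and 4 of 8 in SN (2 higher, 2 lower), where 62.4% of 14704 were called (30.5% higher and 31.9% lower). The 8 genes were called no more often than genes in general. Cell type markers moved between the same groups: in STR 10 of 12 striatal projection neuron markers were called (8 lower, 2 higher, median -0.28), with a summed level of 11599 to 14658 cpm (median 12655) in Nestin-Cre and 8337 to 11341 cpm (median 9940) in AAV-Cre WT libraries. Choroid plexus markers, led by Ttr, were higher for 7 of 7 in STR (summed level 55.6 to 308 cpm, median 112, in Nestin-Cre and 114 to 8088 cpm, median 242, in AAV-Cre mice). In SN 11 of 11 mature oligodendrocyte markers, led by Mbp, were lower (median -0.88), with sums of 17603 to 33328 cpm (median 28099) and 13314 to 20476 cpm (median 17518). In PFC 10 of 12 striatal projection neuron markers were higher (median 0.72; sums of 714 to 1341 cpm, median 926, and 929 to 2143 cpm, median 1170.2), as were 8 of 8 microglia markers, led by Csf1r (0.36; 388 to 487 cpm, median 444, and 469 to 615 cpm, median 527). In SN, where Dagla differed, 6 of 12 striatal markers, led by Penk, were higher (0.84; 266 to 412 cpm, median 340.5, and 353 to 1104 cpm, median 407). Endothelial markers, led by Flt1, were higher for 6 of 6 in STR (0.89; 56.4 to 118 cpm, median 61.4, and 124 to 157 cpm, median 136) and for 5 of 6 in each of PFC (0.45) and SN (0.49).

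Cortical excitatory neuron markers were called for 8 of 9 in PFC (1 higher, 7 lower, median -0.29; sums of 2446 to 2925 cpm, median 2713, in Nestin-Cre and 2023 to 2643 cpm, median 2234, in AAV-Cre libraries). In STR 6 of 9 were called (1 higher, 5 lower, -0.65; 252 to 574 cpm, median 315, and 163 to 225 cpm, median 198), led there by Lamp5. Astrocyte markers, led by Slc1a2, were higher for 6 of 8 in PFC (0.20; 4740 to 6355 cpm, median 5303, and 5638 to 6195 cpm, median 5945) and lower for 5 of 8 in SN (-0.29; 5292 to 7514 cpm, median 5961, and 4610 to 5749 cpm, median 5152). Microglia markers were lower for 4 of 8 in SN (-0.39; 521 to 777 cpm, median 575, and 397 to 612 cpm, median 485). Mature oligodendrocyte markers were lower for 6 of 11 in PFC (-0.23). In STR 5 of 11 of them were called (4 higher, 1 lower, 0.17), as were 5 of 8 astrocyte markers (4 higher, 1 lower, 0.12). Cck-type interneuron markers were called for 4 of 6 in STR (1 higher, 3 lower, -0.27). Dopamine neuron markers were called there for 4 of 5 tested (1 higher, 3 lower, -0.66). None of these markers was at 0 in every library, and their part in the differences of Cnr1, Dagla and the other genes was not tested.

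Whether the regional pattern itself differed between the models was tested by the interaction of region and model in WT mice. EdgeR called 5 of 8 genes, where 56.9% of 15318 genes were called. This fit leaves aside that regions share mice, and with mouse as a replicate block, added after seeing the data, the same 5 genes were called (adjusted p from 2.48e-06 for Dagla to 0.0837 for Cnrip1). Cnr1 (adjusted p = 0.000228) had a smaller STR excess over PFC in AAV-Cre mice, by -0.70 (SE 0.17), and Dagla (adjusted p = 7.16e-05) a smaller deficit in SN, by 0.79 (SE 0.15). Napepld (adjusted p = 0.00223) had a smaller deficit in STR, by 0.53 (SE 0.13). For Abhd6 (adjusted p = 0.0406) the terms were -0.24 in both STR and SN, and for Cnrip1 (adjusted p = 0.0483) they were -0.13 in STR and 0.15 in SN. The call of Abhd6 was lost with the likelihood ratio test (adjusted p = 0.185, and 0.0242 to 0.185 over 8 settings). That of Cnrip1 was lost with the likelihood ratio test (adjusted p = 0.206, and 0.0483 to 0.206 over 8 settings) and without the libraries with markers of other tissue (adjusted p = 0.188).

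The conditional allele was then followed within each model and region, to see whether any step of the pathway moved with it. Gdnf itself, the targeted gene, ran from 5.34 to 7.51 cpm (median 6.78) in WT, from 6.36 to 9.58 cpm (median 7.52) in HET and from 7.62 to 9.96 cpm (median 8.61) in HOM STR of AAV-Cre mice. HOM and WT did not overlap, with a log2 difference of 0.40 (SE 0.09, adjusted p = 0.504). In Nestin-Cre STR the ranges of Gdnf were 3.96 to 7.70 cpm (median 6.26) in WT, 4.03 to 9.39 cpm (median 5.57) in HET and 5.64 to 9.81 cpm (median 6.84) in HOM, which overlapped, with differences of 0.07 (HET, adjusted p = 0.85) and 0.28 (HOM, adjusted p = 0.784). Gdnf was at most 1.69 cpm in PFC and 1.58 cpm in SN. The paper describes the recombined allele as making an mRNA with a shorter untranslated end than the native one. By qPCR it reports raised Gdnf mRNA in striatum of both models. Counts over the annotated exons can miss part of such a rise, so these differences may understate it, which was not tested.

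Cnr1 had the largest genotype difference of the 8 genes, in STR of Nestin-Cre mice. Cnr1 ran from 408 to 773 cpm (median 637) in WT, from 122 to 542 cpm (median 234) in HET and from 166 to 611 cpm (median 298) in HOM libraries. In HET 6 of 7 libraries lay below the lowest WT library, and the highest, mouse M4579 at 542 cpm, stood far above the next at 239 cpm. In HOM 5 of 6 lay below the lowest WT library, and the highest, mouse M4393 at 611 cpm, stood above the next at 316 cpm. The ratio of mean levels to WT was 0.392 in HET and 0.523 in HOM. In edgeR the log2 difference was -1.34 (SE 0.29, 95% interval -1.96 to -0.73) in HET, with an unadjusted p of 0.000192 and an adjusted p of 0.15, and -0.92 (SE 0.31, 95% interval -1.56 to -0.28) in HOM, with 0.00725 and 0.784. Neither passed the threshold of 0.1, and both compare with the same WT libraries.

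Other settings moved these calls and left the direction. For HET the adjusted p of Cnr1 was 0.0116 in DESeq2 and 8.57e-23 in the likelihood ratio test, both past the threshold, and 0.435 with a difference of -1.22 without the libraries with markers of other tissue. The likelihood ratio test used the trended dispersion alone, so the spread of Cnr1 itself between mice did not enter its p. That spread was wide, with an SD of 138 cpm around a mean of 247 cpm in HET and 148 around 329 cpm in HOM. For HOM it was 8.12e-09 in the likelihood ratio test, with a difference of -0.88 without those libraries and -0.91 without mouse M4575. Over 9 settings the difference stayed between -1.35 and -1.22 in HET and between -0.93 and -0.88 in HOM, with adjusted p from 8.57e-23 to 0.435 and from 8.12e-09 to 0.956.

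**Figure D2:**
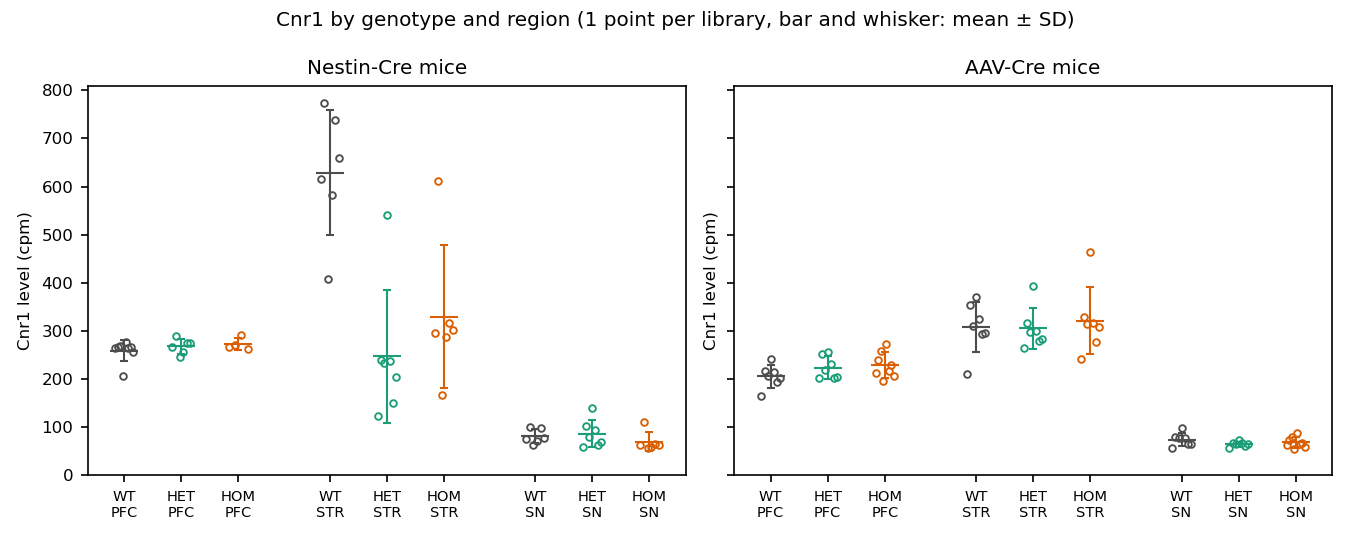
Cnr1 level in cpm (vertical axis) by genotype and region (horizontal axis) in Nestin-Cre mice (left) and AAV-Cre mice (right), with 1 point per library and the mean and SD as bar and whisker. In Nestin-Cre STR most HET and HOM libraries lie below the lowest WT library at 408 cpm, with HET mouse M4579 at 542 and HOM mouse M4393 at 611 cpm among the WT values. In AAV-Cre STR the 3 genotypes overlap.

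Striatal projection neuron markers moved with Cnr1 over the same libraries. Their summed level ran from 11599 to 14658 cpm (median 12655) in WT, from 7121 to 12887 cpm (median 8963) in HET and from 7983 to 13123 cpm (median 11740) in HOM STR of Nestin-Cre mice. In HET 12 of 12 markers had a negative log2 difference (median -0.39, 0 called) and in HOM 10 of 12 (median -0.16, 0 called). The most abundant was Ppp1r1b, with a mean of 2238 cpm over STR libraries, and none was at 0. Over the 19 Nestin-Cre STR libraries Cnr1 rose with the marker sum (Pearson r = 0.905 and Spearman rho = 0.905, each with a two-sided permutation p of 1e-05, the smallest that 100000 permutations can give, and 2e-05 adjusted over the 2 models). In both models this correlation was chosen after the values were seen, so its p values are descriptive. Without the 2 libraries farthest from the median r was 0.907 (n = 17), and after removing genotype means it was 0.861. Over the 21 AAV-Cre STR libraries r was 0.471 (permutation p = 0.0312, also after adjustment) and rho 0.275 (permutation p = 0.227). There r was 0.289 without the 2 farthest libraries (n = 19) and 0.464 after removing genotype means. The relation in AAV-Cre mice was thus weaker by rank and without those 2 libraries. The part of these markers in the Cnr1 difference was not tested.

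**Figure D3:**
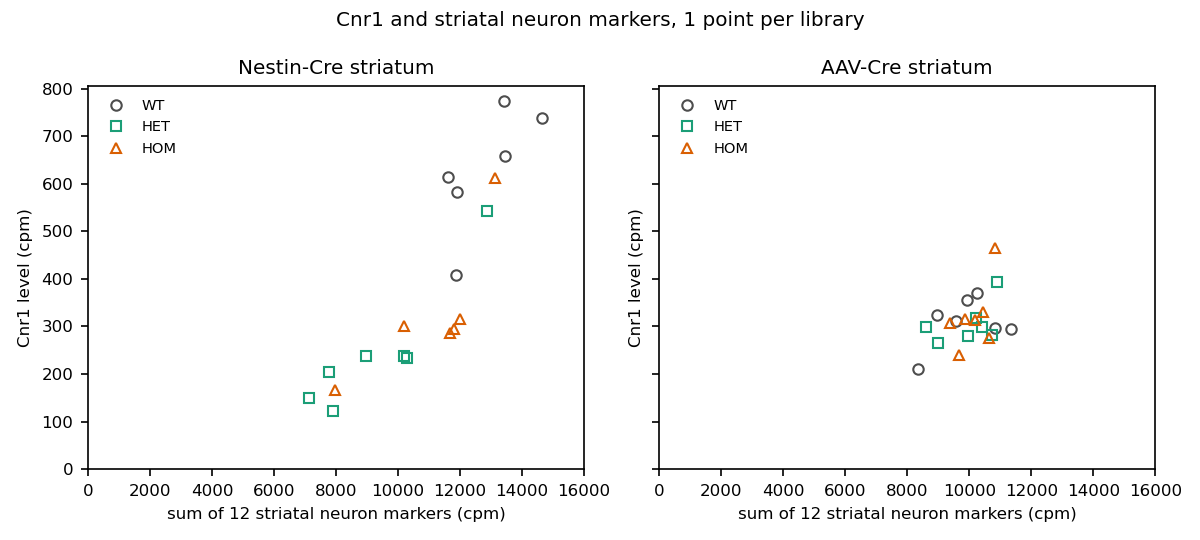
Cnr1 level (vertical axis, cpm) against the summed level of 12 striatal projection neuron markers (horizontal axis, cpm) in STR of Nestin-Cre mice (left) and AAV-Cre mice (right), with 1 point per library and symbols by genotype. In Nestin-Cre mice the libraries with the lowest sums, from 7121 cpm, hold the lowest Cnr1 levels, and HET mouse M4579 and HOM mouse M4393 lie among the WT libraries on both axes.

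Markers of other cell types in the same comparison of Nestin-Cre HET with WT STR had 0 genes called in each list. The log2 difference was negative for 8 of 9 cortical excitatory neuron markers (median -0.75), 4 of 5 GABAergic neuron markers (-0.21), 5 of 6 Cck-type interneuron markers (-0.22), 10 of 11 mature oligodendrocyte markers (-0.17), 7 of 8 microglia markers (-0.17) and 3 of 5 tested midbrain dopamine neuron markers (-0.11). It was negative for 3 of 8 astrocyte markers (median 0.16), 1 of 6 endothelial markers (0.36), 1 of 6 tested markers of olfactory bulb and immature neurons (0.48) and 0 of 7 choroid plexus markers (2.73), the last in a group that holds mouse M4566. For HOM 0 genes were called as well, with negative differences for 11 of 11 mature oligodendrocyte markers (median -0.33), 6 of 7 choroid plexus (-0.53), 6 of 9 cortical (-0.03), 3 of 5 GABAergic (-0.12), 5 of 8 microglia (-0.06) and 3 of 5 dopamine neuron markers (-0.14). They were negative for 3 of 6 Cck-type interneuron (median 0.03), 3 of 8 astrocyte (0.05), 2 of 6 olfactory bulb and immature neuron (0.33) and 0 of 6 endothelial markers (0.50) in HOM. The part of these markers in the Cnr1 difference was not tested either.

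In the other regions and in AAV-Cre mice the ranges of Cnr1 overlapped. The 4 HOM libraries of Nestin-Cre PFC held 262, 267, 269.6 and 290.2 cpm of Cnr1, HET libraries 244 to 289 cpm (median 269.8) and WT libraries 206 to 277 cpm, with differences of 0.06 (HET, adjusted p = 0.776) and 0.10 (HOM, adjusted p = 0.69). Nestin-Cre SN held 58.4 to 139 cpm (median 79.3) in HET and 57.1 to 109 cpm (median 63.0) in HOM against 63.4 to 99.2 cpm in WT. There the HET difference was 0.08 (adjusted p = 0.859), or -0.07 without the libraries with markers of other tissue, and the HOM difference was -0.21 (adjusted p = 0.892), or -0.41 (adjusted p = 0.802) without mouse M4575, whose 109 cpm was the highest of its group. In HOM 4 of 6 libraries held less Cnr1 than the lowest WT library, and in the same comparison oligodendrocyte markers, led by Mbp, were negative for 11 of 11 (median -0.40; sums of 17603 to 33328 cpm, median 28099, in WT and 15694 to 24344 cpm, median 20628, in HOM) and microglia markers for 8 of 8 (-0.29; 521 to 777 cpm, median 575, and 374 to 585 cpm, median 535). Astrocyte markers were negative there for 7 of 8 (-0.20) and dopamine neuron markers for 7 of 9 (-0.16). Cortical markers were negative for 2 of 8 tested (median 0.27) and endothelial markers for 0 of 6 (0.22). None of these was called or at 0 in every library, and their part in the Cnr1 difference was not tested. AAV-Cre STR held 265 to 394 cpm (median 298) in HET and 240.5 to 465 cpm (median 314) in HOM against 210.4 to 371 cpm in WT, with differences of -0.02 (95% interval -0.28 to 0.23, adjusted p = 1) and 0.06 (95% interval -0.20 to 0.31, adjusted p = 0.9995). The HET value was 0.10 and the HOM value 0.15 without the libraries with markers of other tissue. Cnr1 in AAV-Cre PFC differed by 0.12 (HET, adjusted p = 0.55) and 0.14 (HOM, adjusted p = 0.405), and in AAV-Cre SN by -0.19 (HET, adjusted p = 0.946) and -0.11 (HOM, adjusted p = 0.798). In AAV-Cre SN striatal projection neuron markers were negative for 11 of 12 in HET (median -0.54) and 12 of 12 in HOM (-0.51). Of these 0 were called. Their sums ran from 353 to 1104 cpm (median 407) in WT, the highest in mouse M3587. In HET they ran from 330 to 439 cpm (median 399) and in HOM from 340 to 431 cpm (median 386). Their part in the Cnr1 differences was not tested.

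Whether the Cnr1 difference depended on region or model was tested by interactions. Within Nestin-Cre mice the joint test of genotype by region gave Cnr1 an unadjusted p of 6.89e-05 and an adjusted p of 0.279 in edgeR, with a STR term of -1.40 (SE 0.30) for HET and -1.003 (SE 0.33) for HOM relative to PFC. The adjusted p was 0.258 without mouse M4575, 1 without the libraries with markers of other tissue, 0.744 with mouse as a replicate block and mouse M4575 left out as well, and 2.58e-16, past the threshold, in the likelihood ratio test. Between the models in STR, genotype by model gave Cnr1 an unadjusted p of 0.000647 and an adjusted p of 0.455, with terms of 1.32 (SE 0.32) for HET and 0.97 (SE 0.33) for HOM in AAV-Cre relative to Nestin-Cre mice. There it ran from 3.88e-18, in the likelihood ratio test, to 0.795 over 7 settings. A difference of the Cnr1 effect between regions or models was therefore called by the likelihood ratio test and not by the quasi-likelihood test. Only the latter takes in the spread of Cnr1 itself between mice.

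Of the 2-AG genes, Dagla had its largest genotype values in Nestin-Cre mice. Dagla ran from 51.0 to 131 cpm (median 86.4) in HET and from 89.2 to 118 cpm (median 104) in HOM STR, against 83.0 to 143 cpm in WT, and 3 of 7 HET libraries lay below the lowest WT library. Its differences there were -0.27 (SE 0.16, adjusted p = 0.379) and -0.05 (SE 0.17, adjusted p = 0.935), the latter from -0.10 to -0.05 over 9 settings. In Nestin-Cre SN Dagla ran from 28.0 to 62.4 cpm (median 45.2) in HET, with 3 of 7 libraries above the highest WT library, and the difference was 0.30 (SE 0.18, adjusted p = 0.53), or 0.29 without the libraries with markers of other tissue. Markers moved there too, with 0 called: striatal projection neuron markers, led by Penk, were positive for 12 of 12 (median 1.13; sums of 266 to 412 cpm, median 340.5, in WT and 353 to 1938 cpm, median 362, in HET, the highest in mouse M4566). Oligodendrocyte markers, led by Mbp, were negative for 11 of 11 (-0.39; 17603 to 33328 cpm, median 28099, and 16506 to 25389 cpm, median 22979) and microglia markers for 8 of 8 (-0.43; 521 to 777 cpm, median 575, and 373 to 559 cpm, median 520). None was at 0 in every library, and their part in the Dagla difference was not tested.

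The other Dagla values lay between -0.09 and 0.13. Daglb lay between -0.12 (Nestin-Cre STR HET, adjusted p = 0.428, with 4 of 7 libraries below the lowest WT library) and 0.11 (Nestin-Cre PFC HOM, adjusted p = 0.792, and 0.04 to 0.22 when single HOM mice were dropped), and in AAV-Cre STR HET, where 5 of 7 libraries were above the highest WT library, it was 0.09 (SE 0.04, adjusted p = 1). In that AAV-Cre comparison cortical excitatory neuron markers were negative for 1 of 9 (median 0.22, 0 called). Their sums ran from 163 to 225 cpm (median 198) in WT and from 191 to 245 cpm (median 215) in HET. Their part in the Daglb difference was not tested.

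Mgll was lower in PFC of AAV-Cre HET and HOM mice without passing the test. Mgll ran from 361 to 419 cpm (median 389) in WT, from 333 to 393 cpm (median 352) in HET and from 332 to 402 cpm (median 358) in HOM libraries. In HET 5 of 7 and in HOM 5 of 8 libraries lay below the lowest WT library, which both comparisons share. The differences were -0.14 (SE 0.05) and -0.13 (SE 0.05), with adjusted p of 0.34 and 0.249 in edgeR. For HOM DESeq2 gave an adjusted p of 0.0987, past the threshold, and over 8 settings it ran from 0.0987 to 0.507. In Nestin-Cre PFC the Mgll values were 0.03 and 0.01, and the difference of the genotype effect between the models was not called (joint adjusted p = 0.343).

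Markers of other cells were lower in the same AAV-Cre PFC comparisons as Mgll, with 0 called. Astrocyte markers, led by Slc1a2, had negative differences for 8 of 8 in HET and HOM (median -0.16 and -0.12), with sums of 5638 to 6195 cpm (median 5945) in WT, 4967 to 5839 cpm (median 5219) in HET and 4847 to 6065 cpm (median 5235) in HOM libraries. Microglia markers, led by Csf1r, had them for 8 of 8 (-0.24 and -0.21), with sums of 469 to 615 cpm (median 527), 416 to 539 cpm (median 457) and 435 to 563 cpm (median 449). Endothelial markers, led by Flt1, had them for 6 of 6 (-0.25 and -0.22), with sums of 153 to 213 cpm (median 180.0), 126 to 177 cpm (median 146) and 131 to 187 cpm (median 150.3). None was at 0 in every library, and their part in the Mgll difference was not tested. Cortical excitatory neuron markers went the other way, with negative differences for 2 of 9 in HET (median 0.13) and 1 of 9 in HOM (median 0.15) and sums of 2023 to 2643 cpm (median 2234) in WT, 2108 to 2754 cpm (median 2407) in HET and 2186 to 2739 cpm (median 2493) in HOM libraries.

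Mgll in AAV-Cre STR HET differed by 0.12 (SE 0.07, adjusted p = 1), or 0.08 without the libraries with markers of other tissue, with 3 of 7 libraries above the highest WT library, and its STR term relative to PFC was 0.26 (SE 0.08, adjusted p = 0.957). In Nestin-Cre STR HOM the Mgll difference was 0.16 (SE 0.11, adjusted p = 0.784), or 0.07 without the libraries with markers of other tissue. Abhd6 had its largest positive difference in Nestin-Cre PFC HET, 0.12 (SE 0.05, adjusted p = 0.416), where levels ran from 65.5 to 77.2 cpm (median 72.0) against 56.9 to 72.0 cpm in WT and the 4 HOM libraries held 59.95, 62.8, 63.1 and 63.5 cpm. Its other differences lay between -0.18 (Nestin-Cre SN HET) and 0.10 (AAV-Cre STR HET).

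Cnrip1 was higher in STR of AAV-Cre HOM mice without passing the test. Cnrip1 ran from 24.3 to 28.0 cpm (median 26.1) in WT, from 25.9 to 31.3 cpm (median 26.7) in HET and from 27.4 to 32.1 cpm (median 29.9) in HOM libraries. In HOM 6 of 7 libraries lay above the highest WT library. The difference was 0.20 (SE 0.05, 95% interval 0.10 to 0.31), with an unadjusted p of 0.000685 and an adjusted p of 0.627, and it was 0.21 without the libraries with markers of other tissue. In AAV-Cre PFC HOM it was 0.13 (SE 0.06, adjusted p = 0.316), with 6 of 8 libraries above the highest WT library, and in the Nestin-Cre comparisons it lay between -0.01 and 0.09. Over 9 settings the Nestin-Cre values ran from 0.09 to 0.15 in STR HET, 0.02 to 0.12 in STR HOM and -0.09 to -0.01 in SN HOM. Over 12 settings that of Nestin-Cre PFC HOM ran from 0.01 to 0.07. Markers moved in the AAV-Cre HOM comparisons, with 0 called: cortical excitatory neuron markers were negative for 1 of 9 in STR HOM (median 0.46; sums of 163 to 225 cpm, median 198, in WT and 181 to 336 cpm, median 214, in HOM) and 1 of 9 in PFC HOM (median 0.15). Microglia markers were negative for 8 of 8 in STR HOM (median -0.20; 513 to 610 cpm, median 582, and 440 to 567 cpm, median 522). None was at 0 in every library, and their part in the Cnrip1 difference was not tested. Neither anandamide gene was called: the differences of Napepld lay between -0.08 and 0.12 (the latter in Nestin-Cre STR HET, and 0.03 without the libraries with markers of other tissue) and those of Faah between -0.13 and 0.09, with adjusted p of at least 0.563. In Nestin-Cre PFC 5 of 6 HET and 3 of 4 HOM libraries held less Napepld than the lowest WT library, with differences of -0.08 (adjusted p = 0.688) and -0.07 (adjusted p = 0.796), as did 4 of 8 HOM libraries in AAV-Cre SN (-0.07, adjusted p = 0.798). In the AAV-Cre SN comparison, whose WT group holds mouse M3587, striatal projection neuron markers were negative for 12 of 12 (median -0.51, 0 called). In these Nestin-Cre PFC comparisons striatal projection neuron markers, led by Ppp1r1b, were negative for 12 of 12 in HET and HOM (median -0.69 and -0.60, 0 called), with sums of 714 to 1341 cpm (median 926) in WT, 524 to 772 cpm (median 628) in HET and 494 to 815 cpm (median 642) in HOM. Oligodendrocyte markers, led by Mbp, were negative for 11 of 11 in both (-0.42 and -0.43, with 0 and 1 called), with sums of 4184 to 7223 cpm (median 5369), 3681 to 4306 cpm (median 4243) and 2988 to 4995 cpm (median 3891). None was at 0 in every library, and their part in the Napepld differences was not tested. The Faah difference in Nestin-Cre PFC HOM ran up to 0.18 when single HOM mice were dropped.

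**Figure D4:**
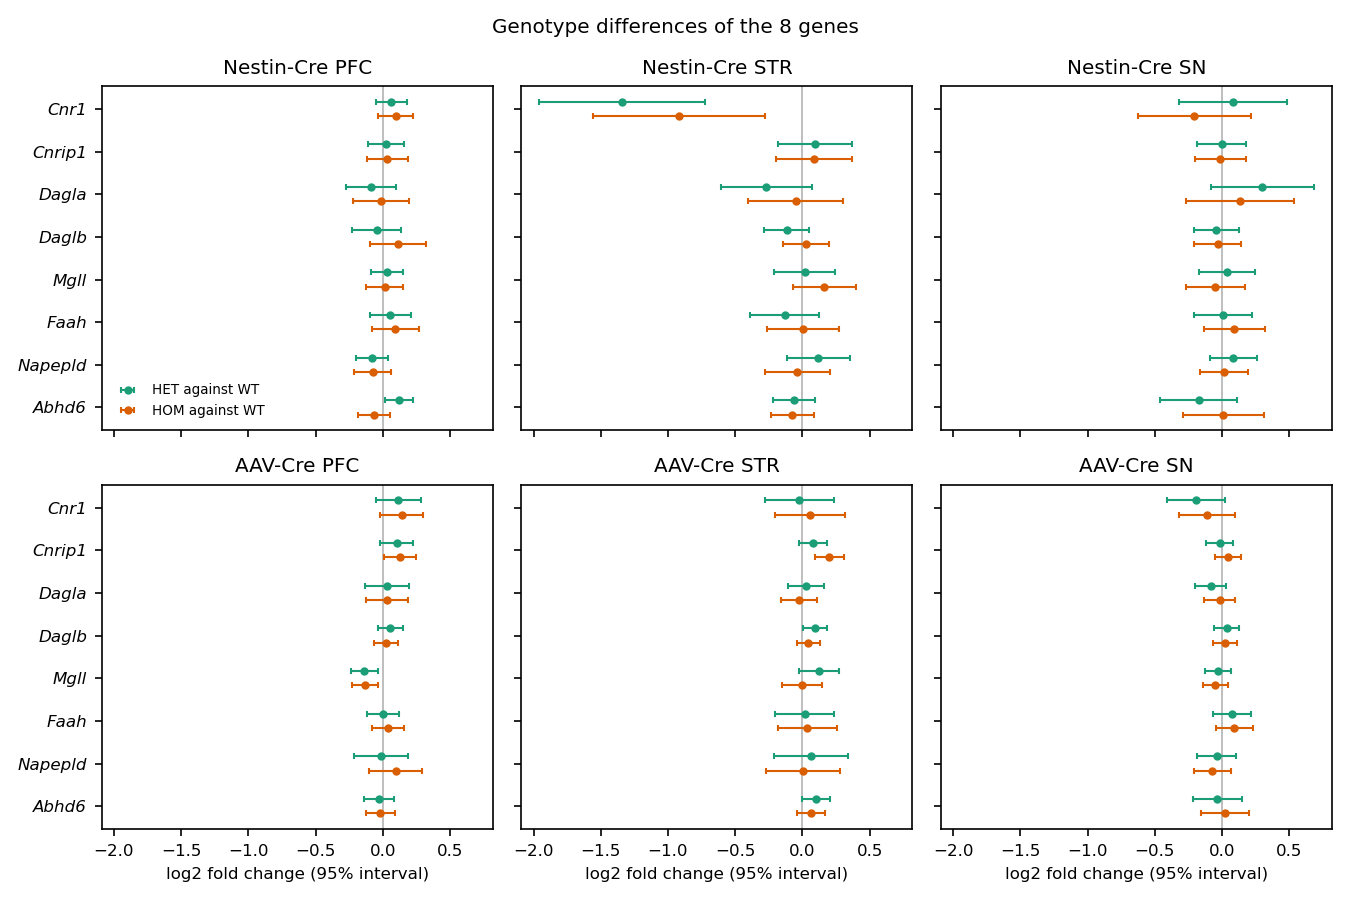
Log2 difference of HET (green) and HOM (orange) from WT mice with its 95% interval (horizontal axis) for each of the 8 genes (vertical axis), by model and region. The Cnr1 values in Nestin-Cre STR, -1.34 and -0.92, are the farthest from 0, and the other values lie between -0.27 and 0.30.

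EdgeR's quasi-likelihood test called 0 of 8 genes in each of the 12 genotype comparisons, where few or no genes of the whole table were called either. In Nestin-Cre PFC the background was 0% (HET) and 0.25% (HOM, 36 genes) of 14386 genes, and 1 and 0 of the 8 genes had an unadjusted p under 0.05, as did 1398 and 1446 of all genes. The 36 genes became 1 without HOM mouse M4568, 9 without mouse M4569 and 122 without mouse M4580, and the 0 of HET became 91 without mouse M4575, 54 without HOM mouse M4580 and 15 without HOM mouse M4393. In Nestin-Cre STR it was 0% in both, with 1 and 1 of the 8 genes (Cnr1) and 2513 and 670 of all 14494 genes at an unadjusted p under 0.05. Nestin-Cre SN had 0% in both, with 0 and 0 of the 8 genes and 1337 and 608 of all 14873 genes at that p. AAV-Cre PFC had 0% (HET) and 0.0137% (HOM, 2 genes) of 14628 genes, with 1 (Mgll) and 2 (Mgll and Cnrip1) of the 8 genes and 1806 and 2074 of all genes at that p. AAV-Cre STR had 0% in both, with 1 (Daglb) and 1 (Cnrip1) of the 8 genes and 251 and 671 of all 14655 genes, and AAV-Cre SN 0% in both, with 0 and 0 of the 8 genes and 694 and 1109 of all 14813 genes.

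Other tools gave the following counts, where those of the likelihood ratio test leave out the spread of each single gene. The likelihood ratio test called 1 of the 8 genes, Cnr1, in Nestin-Cre STR HET and HOM and 0 elsewhere. Of all genes it called 415 and 310 (HET and HOM) in Nestin-Cre PFC, 1242 and 277 in STR and 332 and 119 in SN, and 248 and 429, 56 and 175, and 324 and 218 in the same regions of AAV-Cre mice. DESeq2 called Cnr1 in Nestin-Cre STR HET and Mgll in AAV-Cre PFC HOM, and 0 of the 8 genes elsewhere. Of all genes DESeq2 called 116 and 227 in Nestin-Cre PFC, 535 and 1 in STR and 5 and 1 in SN, and 6 and 184, 0 and 5, and 1 and 10 in AAV-Cre mice. The median log2 difference of the 8 genes lay between -0.09 (Nestin-Cre STR HET) and 0.07 (AAV-Cre STR HET), and that of all genes within 0.01 of 0.

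The interactions with genotype called 0 of 8 genes in edgeR. For genotype by region the background was 0% of 15403 genes in Nestin-Cre and 0.00648% of 15442 in AAV-Cre mice, with 1 gene (Cnr1) and 1 gene (Mgll, joint p of 0.0329 and adjusted p of 0.716) of the 8 at an unadjusted p under 0.05, as were 673 and 1053 of all genes. For genotype by model it was 1.99% of 14757 in PFC, 0.0135% of 14857 in STR and 0% of 15108 in SN, with 1 (Abhd6, adjusted p = 0.284), 2 (Cnr1 and Daglb, adjusted p = 0.482 for Daglb) and 0 of the 8 genes and 2309, 1414 and 1017 of all genes at that p. The likelihood ratio test called Cnr1 in Nestin-Cre genotype by region and in STR genotype by model and 0 of the 8 genes in the others, and 613, 575, 699, 829 and 560 of all genes in this order.

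Some of the 8 genes varied together over the 18 groups of model, region and genotype, and others did not. Dagla followed Mgll (r = 0.957 of mean log2 levels), Cnrip1 followed Faah (0.954) and Daglb followed Faah (0.904). Cnr1 followed Dagla (0.806) and Mgll (0.782), had an r of 0.0194 with Cnrip1 and ran opposite to Napepld (-0.722). Among 10555 genes with a mean of at least 10 cpm, those most like each gene over these groups were Cdh9 (r = 0.988), Rasgef1b and Coq8a for Cnr1, and Baalc (0.995), Ric8a and Rap2a for Cnrip1. They were Atp9b (0.995), Adgrl1 and Lmtk2 for Dagla, Tshz3 (0.989), Arhgef25 and C130074G19Rik for Daglb, and Sirpa (0.994), Fam163b and Stum for Mgll. For Abhd6 they were Fam174b (0.978), Fam13c and Rab33a, for Napepld Efr3a (0.987), Lhfpl2 and Parva, and for Faah Shisa5 (0.997), Ly6e and Sidt1. These values carry no test, and groups of different regions share mice. The 18 groups repeat 3 regions over models and genotypes, so differences between regions enter every r.

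Around the 8 genes, some other receptors and targets of endocannabinoids were scarce. Cnr2, the gene of the CB2 receptor of immune cells, held 1 to 17 counts per library (median 6), and Trpv1, the capsaicin receptor that anandamide can open, held 0 to 70 (median 3, at 0 in 8 libraries), so neither could be compared with Cnr1 at this depth except where Trpv1 passed the filter. Of the 7 listed genes 1 to 3 passed the filter. Ppara, the lipid-sensing nuclear receptor, was lower in STR than in PFC by -0.53 (SE 0.14, adjusted p = 0.00212) in Nestin-Cre and -0.40 (SE 0.09, adjusted p = 0.000622) in AAV-Cre WT mice. EdgeR called 2 of 2, 2 of 2 and 1 of 2 of this list in STR against PFC, SN against STR and SN against PFC of Nestin-Cre WT mice (2 lower, 2 higher, 1 lower), and 2 of 3 (lower), 2 of 3 (higher) and 3 of 3 (1 higher, 2 lower) in AAV-Cre mice. Over all genes the shares called in these comparisons were 68.1%, 76.2% and 78.8% for the Nestin-Cre model and 65.6%, 75.6% and 74.1% for the AAV-Cre model. Between the models it called 1 of 2 in PFC, 1 of 1 in STR and 1 of 3 in SN, each higher in AAV-Cre mice, where the shares over all genes were 46.9%, 61.9% and 62.4%, with Ppara at 0.48 in PFC and 0.60 in STR (SE 0.11 in each).

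Other synthesis genes of anandamide and related lipids numbered 10 in the table (of 13 names listed, some of them synonyms), and 9 were tested. In STR against PFC, SN against STR and SN against PFC, edgeR called 5 (2 higher, 3 lower), 7 (4 and 3) and 7 (4 and 3) in Nestin-Cre and 5 (2 and 3), 5 (3 and 2) and 7 (4 and 3) in AAV-Cre WT mice, against shares over all genes of 68.1%, 76.2% and 78.8%, and 65.6%, 75.6% and 74.1%. Pla2g16, an acyltransferase and phospholipase, was higher in SN than in PFC by 1.70 (SE 0.11, adjusted p = 8.78e-12) and 0.67 (SE 0.08, adjusted p = 1.19e-07), and SN against STR was 1.08 (adjusted p = 4.43e-08) in Nestin-Cre and 0.08 (adjusted p = 0.387) in AAV-Cre mice. Between models 7 were called in PFC (4 higher, 3 lower), 7 in STR (4 and 3) and 4 in SN (1 and 3), where 46.9%, 61.9% and 62.4% of all genes were called. Gdpd3, a lysophospholipase D, was higher in AAV-Cre WT mice by 4.76 (SE 0.34, adjusted p = 1.24e-06) in STR and 2.42 (SE 0.60, adjusted p = 0.00449) in PFC. In SN its value was 1.88 (SE 0.78, adjusted p = 0.0517). Among Nestin-Cre WT mice the SD of Gdpd3 exceeded its mean in PFC (2.33 ± 3.70 cpm) and SN (3.26 ± 6.39 cpm). In STR genotype by model 1 of the 9 was called, and it was again Gdpd3 (joint adjusted p = 0.0809), named here after its value was seen. Over all genes 2 (0.0135%) were called in that test, and 0 without the libraries with markers of other tissue, so this call was lost there.

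Other breakdown, oxidation and carrier genes numbered 10, of which 7 or 8 were tested. In the same 3 region comparisons edgeR called 5 (1 higher, 4 lower), 6 (3 and 3) and 7 (2 and 5) in Nestin-Cre and 5 (0 and 5), 5 (3 and 2) and 6 (2 and 4) in AAV-Cre WT mice, where all genes gave 68.1%, 76.2% and 78.8%, and 65.6%, 75.6% and 74.1%. Ptgs2, the cyclooxygenase that can oxidize 2-AG, was lower in STR than in PFC by -2.76 (SE 0.34, adjusted p = 4.03e-07) and -3.31 (SE 0.22, adjusted p = 9.32e-12). Between models 2 were called in PFC (0 higher, 2 lower), 5 in STR (1 and 4) and 7 in SN (2 and 5), against 46.9%, 61.9% and 62.4% of all genes. The fatty acid binding proteins Fabp7 and Fabp5, which carry anandamide inside cells, were lower in AAV-Cre WT mice in SN by -1.39 (SE 0.14, adjusted p = 4.56e-06) and -1.25 (SE 0.14, adjusted p = 7.67e-06). Both were also called lower in STR (-1.29 and -0.64) and in PFC (-0.72 and -0.31).

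Upstream of Dagla, 13 genes of Gq-coupled receptors, their G proteins, phospholipase C and Homer scaffolds were tested. The 3 region comparisons called 10 (5 higher, 5 lower), 10 (3 and 7) and 11 (2 and 9) of them in Nestin-Cre and 11 (6 and 5), 11 (5 and 6) and 11 (3 and 8) in AAV-Cre WT mice, and of all genes 68.1%, 76.2% and 78.8%, and 65.6%, 75.6% and 74.1%. Like Dagla, Chrm1, a muscarinic receptor that drives 2-AG synthesis, was lower in SN than in PFC, by -4.31 (SE 0.36, adjusted p = 5.72e-10) and -4.07 (SE 0.26, adjusted p = 2.68e-12). Between models 8 were called in PFC (2 higher, 6 lower), 8 in STR (4 and 4) and 9 in SN (9 and 0, median 0.29 over the list), where 46.9%, 61.9% and 62.4% of all genes were called, in SN 30.5% higher.

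Downstream of CB1, 14 genes of Gi/o proteins, channels, adenylyl cyclases and release proteins were tested. The 3 region comparisons called 11 (2 higher, 9 lower), 13 (6 and 7) and 13 (2 and 11) in Nestin-Cre and 11 (3 and 8), 12 (7 and 5) and 13 (4 and 9) in AAV-Cre WT mice, beside 68.1%, 76.2% and 78.8%, and 65.6%, 75.6% and 74.1% of all genes. Adcy5, the striatal adenylyl cyclase, was higher in STR than in PFC by 2.82 (SE 0.10, adjusted p = 2.82e-15) and 2.32 (SE 0.15, adjusted p = 1.26e-11), as Cnr1 was. Between models 9 were called in PFC (5 higher, 4 lower), 7 in STR (5 and 2) and 13 in SN (10 and 3), beside 46.9%, 61.9% and 62.4% of all genes. In SN Kcnj6, a potassium channel subunit that Gi/o signaling opens, was higher by 1.37 (SE 0.17, adjusted p = 1.81e-05). In the 12 genotype comparisons edgeR called 0 genes of each of the 5 lists. The highest counts at an unadjusted p under 0.05 in any of these comparisons were 1 of 1 other receptors (Nestin-Cre STR HET, where 2513 of 14494 genes reached it), 5 of 9 synthesis genes and 6 of 13 genes upstream of Dagla (both AAV-Cre PFC HOM, 2074 of 14628 genes), 1 of 7 breakdown genes (Nestin-Cre STR HET) and 4 of 14 genes downstream of CB1 (Nestin-Cre SN HET, 1337 of 14873 genes). For other receptors the count was also 1 in Nestin-Cre PFC HOM, SN HET and SN HOM. For breakdown genes it was also 1, of 8 tested, in Nestin-Cre PFC HET, AAV-Cre PFC HET and AAV-Cre SN HOM.

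These results rest on RNA of dissected tissue, so cell number, cell type and RNA per cell are mixed in every value, and protein, enzyme activity and lipid levels were not measured. Groups of 4 to 8 mice leave wide intervals for the genotype differences, of which that of Cnr1 in Nestin-Cre STR was widest, and a difference that was not called is not shown to be absent. The models differ in age, injection and source of Cre at once. Markers of other tissue were high in 13 libraries, for a cause that was not tested, and 1 mouse carries 2 genotype labels. Levels of CB1 in SN axons cannot be read from SN RNA.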

How the data were processed

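RNA was sequenced in 121 libraries, and the deposited table gives a raw count for each of 24412 genes in every library. Of these genes 6 have no symbol, and the value columns not used number 0. Per the submitters' processing notes, reads were demultiplexed with bcl2fastq 2.20.0.422, aligned to mm10 with STAR 2.5.2b and counted in exons with featureCounts 1.5.1. The table that the authors deposited held whole numbers only, and these were used as the count of each gene. Groups came from the labels, with 1 sample per library. Fits kept genes reaching 1 cpm in 3 or more libraries of the fit, with TMM scaling and edgeR 4.0.16 (quasi-likelihood F test, trended dispersion, legacy mode, two-sided) in R 4.3.3. Genotypes were compared in 1 fit per model and region, regions in 1 fit per model of WT mice, models in 1 fit per region of WT mice, and interactions by joint tests. A gene counts as called where its p, adjusted over all genes of the fit by Benjamini and Hochberg, is under 0.1, and SEs come from the fold change over the root of F.

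Mice of a group differed by more than counting noise in all 18 groups (chi-square per degree of freedom at least 4.66). That the same mouse number means the same animal across regions was checked by correlating libraries after removing group means: median r of the same mouse was 0.179 to 0.276, against -0.0146 to -0.00266 between mice. Alternatives were edgeR's likelihood ratio test, DESeq2 1.42.0, its size factors in edgeR, no filter, a threshold of 0.05, only the 2 genotypes compared, all results without mouse M4575, dropping the 4 HOM mice of Nestin-Cre PFC 1 at a time, all genotypes in the region fit, and mouse as a replicate block. The likelihood ratio test used the trended dispersion alone, without the spread of each single gene. Leaving out the 13 libraries with markers of other tissue, and the replicate block for region by model, were chosen after seeing the data. So was the correlation of Cnr1 with the striatal marker sum. Named genes are the 8 members, Gdnf, Cnr2, Trpv1 and, per comparison and pathway list, up to 2 called genes of at least 5 cpm with the largest differences, of which some are given here. Likeness took the 3 genes of highest r over 18 groups. The members, the 5 pathway lists and the 11 marker lists were chosen with earlier results of these data known. The filter, scaling and genotype fit were tested on simulated data in which every gene had the same dispersion. Spread that differs between genes, and regions that share mice, were not simulated.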

Additional observations from a re-analysis of the deposited data

Results flagged for a closer look

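In 14 of 144 groups (1 gene in 1 group of 4 to 8 libraries) the highest or lowest library lay apart from the others by a share of the group's range that chance exceeds in about 1 in 20 groups. For Cnr1 this share was 0.696 in Nestin-Cre PFC WT (mouse M4329 lowest), 0.722 in Nestin-Cre STR HET (mouse M4579 highest), 0.662 in Nestin-Cre STR HOM (mouse M4393 highest), 0.846 in Nestin-Cre SN HOM (mouse M4575 highest), 0.598 in AAV-Cre STR HET (mouse M3586 highest) and 0.603 in AAV-Cre STR HOM (mouse M3749 highest). For Cnrip1 it was 0.599 in AAV-Cre PFC WT (mouse M3588 lowest). For Mgll it was 0.672 in Nestin-Cre STR HOM (mouse M4569 highest) and 0.586 in AAV-Cre SN HOM (mouse M3611 lowest), and for Faah 0.71 in Nestin-Cre STR HOM (mouse M4569 highest). For Napepld it was 0.655 in Nestin-Cre PFC HET (mouse M4564 highest), 0.61 in Nestin-Cre STR HET (mouse M4566 highest) and 0.63 in AAV-Cre PFC WT (mouse M3588 lowest), and for Abhd6 0.595 in Nestin-Cre PFC WT (mouse M4396 lowest). Mice M4569 and M4566 are among those whose STR libraries held markers of other tissue.

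The regional pattern of 5 genes in WT mice differed between the models by the test of the interaction itself, with adjusted p of 0.000228 for Cnr1, 0.0483 for Cnrip1, 7.16e-05 for Dagla, 0.00223 for Napepld and 0.0406 for Abhd6, where 56.9% of all genes were called. With the likelihood ratio test these were 0.185 for Abhd6 and 0.206 for Cnrip1, and without the libraries with markers of other tissue 0.188 for Cnrip1.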

How the results depend on the processing

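Of 1624 values of the 8 genes under the alternatives, 1585 kept their direction and their side of the threshold, 6 lost a call, 9 gained one and 24 changed sign. None of those 24 was a called value, and the largest was 0.12 on the log2 scale; in each the cause was not tested. Without the 13 libraries with markers of other tissue (chosen after seeing the data) the sign changed for Nestin-Cre STR HOM Daglb (-0.0213) and Faah (-0.122), SN HET Cnr1 (-0.0722) and Mgll (-0.0300), AAV-Cre STR HET Cnr1 (0.0954), Faah (-0.0884) and Napepld (-0.0109), STR HOM Dagla (0.0113), Mgll (0.0400) and Napepld (-0.00766), SN HET Cnrip1 (0.00789) and Abhd6 (0.00653), Daglb in AAV-Cre WT SN against STR (-0.00171) and Faah in WT STR between models (0.00259). With no filter it changed for Nestin-Cre STR HOM Faah (-0.0118), AAV-Cre STR HOM Mgll (0.00175) and Daglb in WT STR between models (-0.0216). Without mouse M4575 it changed in Nestin-Cre SN for Faah HET (-0.01255), Napepld HOM (-0.0151) and Abhd6 HOM (-0.0411), and with only the 2 genotypes compared for Faah HET (-0.0121). Dropping the HOM mice of Nestin-Cre PFC 1 at a time gave Dagla -0.0551 to 0.0163 and Mgll -0.0168 to 0.0583, and without a change of sign Daglb 0.0376 to 0.215 and Faah up to 0.181.

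Counts that moved by more than 1.5 times follow, and for these too the cause was not tested. With the likelihood ratio test the 8 genes gave 1 in Nestin-Cre STR HET, STR HOM, genotype by region and STR genotype by model, and 3 in region by model; all genes gave 415 and 310 (Nestin-Cre PFC HET and HOM), 1242 and 277 (STR), 332 and 119 (SN), 248 and 429 (AAV-Cre PFC), 56 and 175 (STR), 324 and 218 (SN), 613 and 575 (genotype by region) and 699, 829 and 560 (genotype by model). DESeq2 gave 1 of the 8 genes in Nestin-Cre STR HET and AAV-Cre PFC HOM, and of all genes 116 and 227, 535 and 1, and 5 and 1 in Nestin-Cre and 6 and 184, 0 and 5, and 1 and 10 in AAV-Cre PFC, STR and SN. Its size factors in edgeR gave 55 in Nestin-Cre PFC HOM. An adjusted p under 0.05 gave 11 there, 1 in AAV-Cre PFC HOM, and 126 in PFC and 1 in STR genotype by model. No filter gave 2 in Nestin-Cre SN HOM, 1 in AAV-Cre STR HOM, 1 in AAV-Cre SN HOM and 163 in PFC genotype by model. Only the 2 genotypes compared gave 39 and 5 in Nestin-Cre PFC HET and HOM, 8 in Nestin-Cre STR HET and 1 in AAV-Cre PFC HET. Dropping the HOM mice of Nestin-Cre PFC 1 at a time gave 0 to 54 in HET and 1 to 122 in HOM, and without mouse M4575 HET gave 91. Without the 13 libraries, AAV-Cre genotype by region and STR genotype by model gave 0, as did AAV-Cre genotype by region with mouse as a replicate block.

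With a replicate block the region comparisons kept all 43 called values of the 8 genes, with a largest shift of 0.08 for Dagla, and genotype by region gave 0 in AAV-Cre mice, and in Nestin-Cre mice with mouse M4575 left out as well. Region by model with a replicate block (chosen after seeing the data) kept its 5 calls. The 8 genes held at least 99 counts in every library.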
